A study of Arabidopsis thaliana with 24 samples.

Results

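Wall-modification genes of Arabidopsis thaliana are the genes that the deposited annotation places in the MapMan bin for cell wall modification. Each gene whose bin text holds that term was taken, with no use of its measured level, which gave 69 of the 27655 genes in the table. They belong to 2 families. Of the 69, 37 are expansins or expansin-like genes (25 alpha-expansins named EXPA, 6 beta-expansins named EXPB, 3 EXLA and 3 EXLB), and 32 are xyloglucan endotransglucosylase/hydrolases (XTH). Some carry older symbols: TCH4 is XTH22, XTR6 is XTH23, EXGT-A3 is XTH27, EXP3 is EXPA3, EXP26 is EXPA26 and PNP-A is EXLB3.

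RNA-seq was made from rosettes of wild-type Col-0 plants, moved to new soil at 2 weeks and treated 14 days later, with 3 biological replicates in each of 8 groups. Salt was a watering with 150 mM NaCl and mannitol, an osmotic stress, a watering with 200 mM mannitol, both given 16 h before harvest, and 1 solution held both for the salt plus mannitol group. Heat was 4 h at 35 °C in another cabinet, begun after 3 h of light. It was reached 12 h after watering in the groups that combined it with salt, mannitol or both. The unheated groups stayed at 22 °C by day. All groups had 16 h of light and 8 h of dark, with nights at 18 °C. An effect of heat cannot be told apart from one of the move or of the cabinet. Control and heat-alone plants have no recorded watering, so an effect of watering cannot be told apart from one of salt or mannitol, and the labels do not give the number of plants in a replicate.

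Plant cells enlarge when turgor stretches a wall that is being loosened. Expansins loosen the contacts between cellulose and the polymers around it without cutting them and work best in an acid wall, whereas XTH enzymes cut xyloglucan, the main hemicellulose of the wall in this plant, and rejoin the ends. The EXLA and EXLB proteins resemble expansins but have no established wall-loosening activity, and PNP-A is a secreted plant natriuretic peptide known for effects on water and ion balance.

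Both families hold neighbouring copies. In the RefSeq TAIR10.1 annotation 19 of the 69 genes stand in 7 runs of neighbouring members, among them XTH13, XTH25 and TCH4 (chr5:23302787-23308680) and EXLA3 with EXLA1 (chr3:16892702-16897308). The 250 bases before the annotated starts of 2 such neighbour pairs are shown because the neighbours TCH4 and XTH25 had the largest rises of the set under salt, and because EXLA3 and EXLA1 carry the hexamer CGCGTT, found in capitals below in its reverse form. In XTH25 the capitals mark CGTGTG, also in reverse. Windows are given 5′ to 3′ on the gene's strand.
TCH4 (chr5:23308681-23308930, minus strand): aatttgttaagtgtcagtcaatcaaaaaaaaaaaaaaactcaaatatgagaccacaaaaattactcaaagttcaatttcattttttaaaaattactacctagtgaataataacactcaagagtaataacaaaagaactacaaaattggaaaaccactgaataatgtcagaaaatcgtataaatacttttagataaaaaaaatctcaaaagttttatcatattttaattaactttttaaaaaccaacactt
XTH25 (chr5:23306441-23306690, minus strand): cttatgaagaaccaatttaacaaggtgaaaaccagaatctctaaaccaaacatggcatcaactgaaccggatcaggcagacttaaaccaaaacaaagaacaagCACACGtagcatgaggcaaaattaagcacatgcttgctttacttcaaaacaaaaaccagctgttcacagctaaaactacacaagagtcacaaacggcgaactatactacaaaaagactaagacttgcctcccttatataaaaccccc
EXLA3 (chr3:16892452-16892701, plus strand): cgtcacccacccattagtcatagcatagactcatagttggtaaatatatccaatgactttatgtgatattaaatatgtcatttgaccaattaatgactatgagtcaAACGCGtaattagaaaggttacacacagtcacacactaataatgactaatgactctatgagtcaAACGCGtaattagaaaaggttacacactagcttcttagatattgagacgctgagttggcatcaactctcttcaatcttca
EXLA1 (chr3:16895916-16896165, plus strand): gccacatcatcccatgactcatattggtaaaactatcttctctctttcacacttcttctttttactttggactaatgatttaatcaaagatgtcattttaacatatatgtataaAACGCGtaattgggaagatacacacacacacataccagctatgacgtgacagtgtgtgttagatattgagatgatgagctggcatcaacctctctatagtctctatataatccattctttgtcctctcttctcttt

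Searched on both strands of such windows, CGCGTT, the core of the rapid stress response element, was present before 8 of the 69 genes (11.6%) and before 2.59% of 27443 annotated genes. CGTGTG, a brassinosteroid response element, was also present before 8 of the 69 (11.6%) and before 5.37% of all. The heat shock element GAANNTTC stood before 7 members (10.1% against 9.55%), the auxin response element TGTCTC before 6 (8.70% against 10.9%), the G-box CACGTG before 1 (1.45% against 6.49%) and ACGTGTC, a core bound by abscisic acid response factors, before 0 (0% against 3.68%). The TCH4 window held none of the 6. Such matches describe the letters of this window and not binding.

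Libraries held 12.5 to 19.5 M read counts and organelle transcripts took at most 0.136% of them, apart from mannitol plus heat 2 at 0.690%. Rosette identity was checked with marker lists. Leaf mesophyll markers summed to between 21390 and 49640 TPM (a gene's share of transcripts, scaled by length and depth) in each library, while 5 root markers summed to at most 2.11, 4 flower markers to at most 0.506, and 2 of 3 pollen markers were at 0 throughout. Mesophyll sums were 42300 to 49640 TPM in control and 21390 to 36690 in the treated libraries, and the 4 guard cell markers summed to 32.2 to 37.4 in control and 15.1 to 27.6 in the treated libraries; their part in the results was not tested. In whole rosettes, fewer cells of a type and less RNA per cell cannot be told apart.

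Expression reached 61 of the 69 genes with at least 1 count, and 47 passed the filter on low counts and were tested: 16 EXPA, 2 EXPB, 3 EXLA, 2 EXLB and 24 XTH. The 22 left out had mean levels of at most 0.246 TPM and at most 14 counts in a library. They include the root hair expansins EXPA7 and EXPA18, the root genes XTH12, XTH13, XTH14, XTH21 and XTH26, 4 of the 6 beta-expansins, and EXPA22, EXPA23, EXP26 and EXPA25, whose coding sequences share 53.7% to 67.3% of their 31-base words with another gene of the same run. Levels were concentrated in few genes: 41 members averaged at least 1 TPM, 29 at least 5 and 20 at least 20, and the 6 highest held 45.8% of the summed level of the set. These 6 were XTH7 (138 TPM as the mean of all libraries), XTH4 (119), EXPA1 (87.0), EXPA6 (80.4), XTH9 (64.5) and EXPA4 (50.7). The next 2 were XTH31 (50.6) and EXPA8 (48.2), so that EXPA4, XTH31 and EXPA8 stood close together. That order pools groups in which the genes differ. In control alone EXPA1 (158 ± 34.2 TPM, SD, n = 3) and XTH4 (150 ± 29.3) were highest and within their spread of each other, followed by EXPA6 (111 ± 9.48) and XTH7 (103 ± 17.0), then EXPA8 (89.0 ± 22.6) and XTH9 (74.0 ± 9.01).

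The summed levels of the 2 families did not move in parallel. Summed over the 37 expansin genes, the mean level was 763 ± 83.4 TPM (SD, n = 3) in control, 623 ± 31.7 under salt, 693 ± 91.5 under mannitol, 607 ± 27.4 under salt plus mannitol, 513 ± 52.4 under heat, 550 ± 15.5 under salt plus heat, 517 ± 130 under mannitol plus heat and 414 ± 10.2 under all 3 stresses. The 32 XTH genes summed to 613 ± 83.3 TPM in control, 806 ± 125 under salt, 437 ± 71.3 under mannitol, 368 ± 40.4 under salt plus mannitol, 769 ± 41.9 under heat, 752 ± 44.5 under salt plus heat, 513 ± 79.0 under mannitol plus heat and 475 ± 71.2 under all 3. These sums were not tested. The expansin sum was at its lowest in the triple combination and the XTH sum in the salt plus mannitol group. The XTH sum stood above control in the salt, heat and salt plus heat groups. XTH7 held most of the difference under heat: its mean was 103 TPM in control, 247 under heat and 205 under salt plus heat. Over the 24 tested XTH genes the median log2 fold change was -0.16 under heat and -0.12 under salt plus heat.

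**Figure D1:**
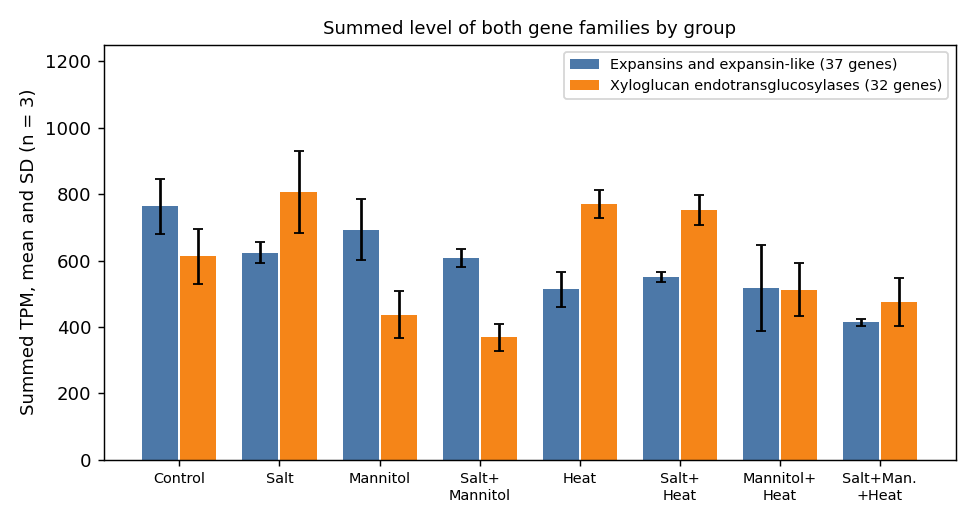
Summed TPM (vertical axis; bars are means and error bars SD of 3 libraries) of the 37 expansin-type genes and the 32 XTH genes in the 8 groups. The XTH bars are lower in each group given mannitol (368 to 513) than in each group without it (613 to 806).

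Differences between groups below are log2 fold changes ± SE from edgeR's quasi-likelihood test fitted to all 24 libraries. The test returns no SE, so the SE is the absolute log2 fold change divided by the square root of the test's F statistic. It is an approximation, and a poor one where counts are low or the change is small. Rises, falls and calls are those with a Benjamini-Hochberg adjusted p over 20027 genes under 0.05. Across the 7 treatments against control, 41 tested members were called at least once: 21 with falls only, 7 with rises only and 13 with both. The same share over all genes was not counted. Each heated group against control alone called 62.6% to 65.7% of all genes, so these counts do not set the members apart from other genes. In the 14 planned comparisons together, 6 were never called: XTH10, XTH19, XTH29, XTR6, EXPA13 and EXPA21. All 7 treatments share the same 3 control libraries.

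**Figure D2:**
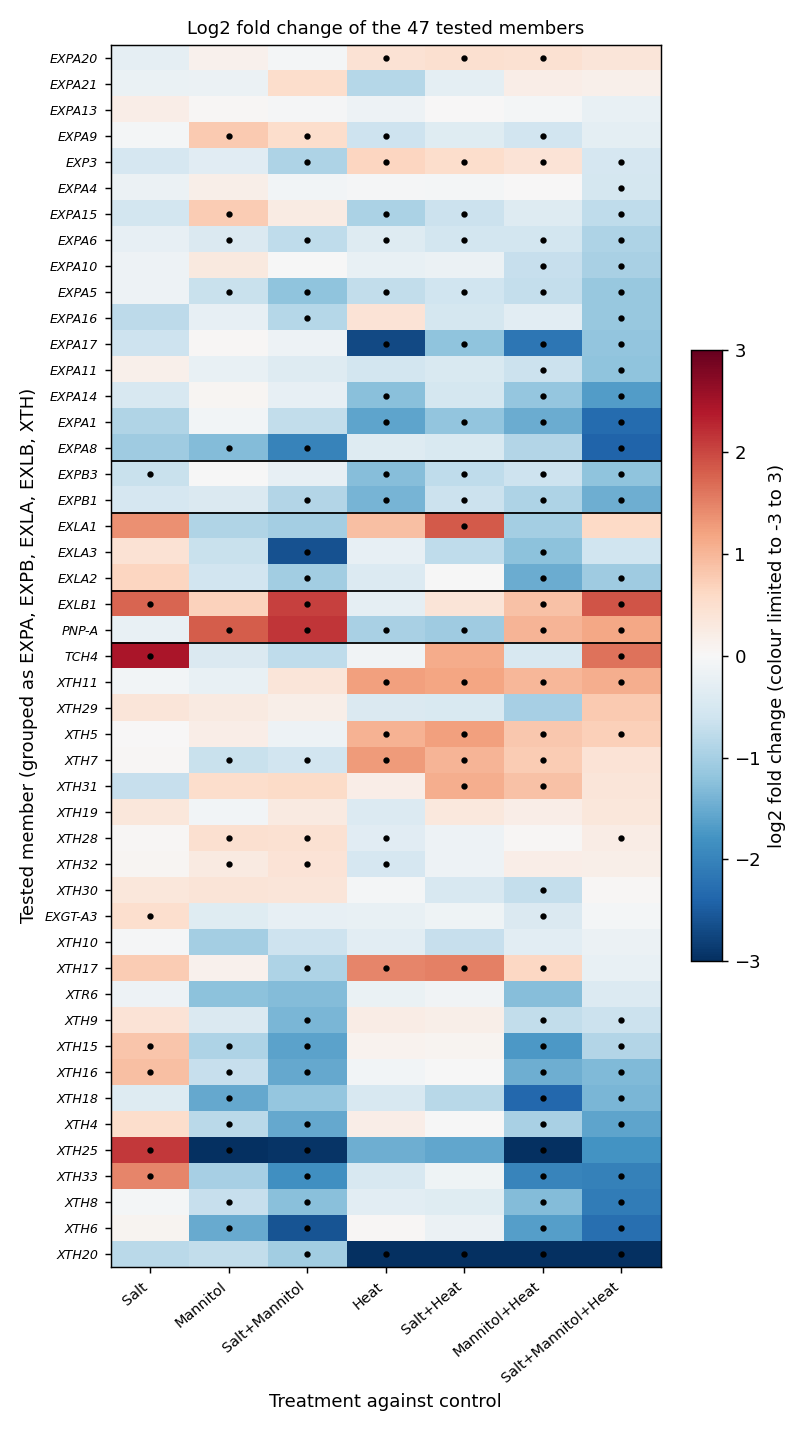
Log2 fold change against control (colour, limited to -3 to 3) of the 47 tested members (rows, grouped as EXPA, EXPB, EXLA, EXLB and XTH) under the 7 treatments (columns). Dots mark calls, of which there were 8 under salt, 16 under mannitol, 24 under salt plus mannitol, 19 under heat, 17 under salt plus heat, 33 under mannitol plus heat and 30 under all 3 stresses.

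Salt alone raised XTH genes. Of the 47 tested members 7 rose (14.9%, against 4.54% of all genes tested) and 1 fell (2.13%, against 6.41%); in either direction 11% of all genes were called. Among the 24 XTH genes 6 rose and 0 fell, with a median over the family of 0.21 against 0.0019 over all genes. Of the 16 EXPA genes 0 were called, but their median was -0.26, so the lack of calls does not show that they were unchanged.

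TCH4, an XTH gene named for its induction by touch, stood at 59.9, 75.4 and 77.6 TPM under salt and at 18.4, 7.31 and 13.2 in control, and rose by 2.44 ± 0.53 (adjusted p = 0.00778). The salt libraries all lay above the controls. XTH33, whose protein is found at the plasma membrane as well as in the wall, stood at 2.64, 3.26 and 3.23 TPM against 1.59, 0.770 and 0.910 and rose by 1.46 ± 0.31 (adjusted p = 0.00433). EXLB1, an expansin-like gene, stood at 74.7, 66.3 and 71.0 TPM against 21.4, 23.9 and 17.2 and rose by 1.75 ± 0.30 (adjusted p = 0.00169). For these 3 genes no salt library overlapped a control, and the call was made with each of the 6 libraries left out in turn.

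The other 5 calls under salt each rested on some library, and without salt 2 only 3 members were called. XTH25, next to TCH4, stood at 5.24, 15.4 and 14.2 TPM against 4.87, 1.61 and 1.47 in control and rose by 2.11 ± 0.62 (adjusted p = 0.0362). Its call was lost without control 2 or 3 or salt 2 or 3 (1.84 to 1.95, adjusted p = 0.114 to 0.149), and without control 1, the highest control, its value was 2.90. XTH15 rose by 0.84 ± 0.20, which was lost without salt 2 (0.58, adjusted p = 0.0896), and XTH16 by 0.91 ± 0.23, lost without control 2 or salt 2 or 3 (0.79 to 0.85, adjusted p = 0.063 to 0.0802). EXGT-A3 rose by 0.50 ± 0.15, lost without control 2 or 3 or salt 2 or 3 (0.33 to 0.52, adjusted p = 0.0784 to 0.209). EXPB3 fell by 0.67 ± 0.21 (46.5, 45 and 32.5 TPM against 64.4, 65.0 and 66.5), and this call was lost with any of the 6 libraries left out (-0.76 to -0.52, adjusted p = 0.066 to 0.192). Fitted to the salt and control libraries alone, 8 members rose and 7 fell, and with scaling by library totals 9 rose and 0 fell.

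Mannitol alone lowered XTH genes. Of 47 tested members 11 fell (23.4%, against 11.4% of all genes) and 5 rose (10.6%, against 12.2%); 23.6% of all genes were called in either direction. Among XTH genes 8 fell and 2 rose, with a family median of -0.55. Of the 23 tested expansin-type genes 3 fell and 3 rose, where 11.4% of all genes fell and 12.2% rose. These counts do not set the expansins apart from all genes. Among EXPA genes 3 fell and 2 rose, with a median of -0.02.

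XTH6 had 34.4, 28.1 and 13.8 TPM under mannitol and 71.0, 59.6 and 85.1 in control, a fall of 1.5 ± 0.39 (adjusted p = 0.0097). XTH4, an abundant gene known from growing and fibre cell walls of stems, had 112, 84.4 and 59.6 TPM against 156, 119 and 177 and fell by 0.82 ± 0.26 (adjusted p = 0.0295). In both genes mannitol 3 was the lowest of its group and no library overlapped a control. Without mannitol 3 the calls of XTH6 (-1.20, adjusted p = 0.0542), XTH4, XTH8, XTH16, XTH7, XTH18, XTH25, EXPA6 and EXPA8 were all lost, and the number of members called dropped from 16 to 7.

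Several of these also rested on other libraries. The XTH4 call was lost without control 1 or 3 or mannitol 2 or 3 (-0.82 to -0.61, adjusted p = 0.063 to 0.148), and so was that of XTH8 (-0.69 ± 0.22; -0.69 to -0.50 without them, adjusted p = 0.0708 to 0.162). That of XTH16 (-0.69 ± 0.25) was lost without any control or mannitol 2 or 3 (adjusted p = 0.0681 to 0.205), and that of EXPA8 (-1.30 ± 0.41) without control 3 or mannitol 2 or 3 (adjusted p = 0.0509 to 0.124). XTH25 fell by 3.59 ± 0.97, to 0.342, 0.143 and 0.168 TPM, and lost its call without control 1 (-2.82) or mannitol 3 (adjusted p = 0.0551 to 0.0663). XTH7 (-0.66 ± 0.18) lost its call without control 3 or mannitol 3 (adjusted p = 0.057 to 0.0778), EXPA6 (-0.44 ± 0.15) without control 1 or 3 or mannitol 3 (adjusted p = 0.106 to 0.23), XTH18 (-1.54 ± 0.48) without control 1 or any mannitol library (adjusted p = 0.062 to 0.12) and XTH32 (0.28 ± 0.10) without any control or mannitol 1 or 2 (adjusted p = 0.0606 to 0.178).

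Calls that did not rest on a single library were made for 6 members under mannitol. PNP-A rose by 1.82 ± 0.34 (39.7, 39.2 and 46.9 TPM against 16.6, 10.4 and 8.20; adjusted p = 0.000731), the largest rise of the set. The alpha-expansins EXPA9 (0.77 ± 0.18) and EXPA15 (0.75 ± 0.19; 32.4, 31.3 and 27.9 TPM against 16.4, 18.6 and 19.1) and XTH28 (0.47 ± 0.09) also rose. EXPA5, an expansin known from leaf growth, fell by 0.67 ± 0.16 (46.1, 40.1 and 31.2 TPM against 56.3, 62.0 and 68.5; adjusted p = 0.004), and XTH15, a gene also known for its induction by shade, fell by 0.92 ± 0.22. In all 6 genes the mannitol and control libraries were apart.

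Salt and mannitol were set against each other directly, a comparison in which both groups had been watered. Under mannitol 15 of the 47 members were lower than under salt (31.9%, against 10.1% of all genes) and 6 higher (12.8%, against 12.1%); 22.2% of all genes were called. XTH25 differed by -5.71 ± 0.87 (adjusted p = 0.000143), TCH4 by -2.88 ± 0.55 (adjusted p = 0.00112), XTH33 by -2.46 ± 0.34, XTH15 by -1.76 ± 0.21, XTH16 by -1.60 ± 0.24, XTH6 by -1.59 ± 0.39 and XTH4 by -1.34 ± 0.26. PNP-A was higher under mannitol by 2.05 ± 0.35, EXPA15 by 1.30 ± 0.20, XTH31, which can hydrolyse xyloglucan, by 1.23 ± 0.24 and EXPA9 by 0.84 ± 0.19. The calls named here were made with each library left out. EXLB1 was lower under mannitol by 1.05 on the log2 scale (-1.05 ± 0.29), a call lost without mannitol 1 or 2 (-0.92 to -0.85, adjusted p = 0.0571 to 0.0765).

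**Figure D3:**
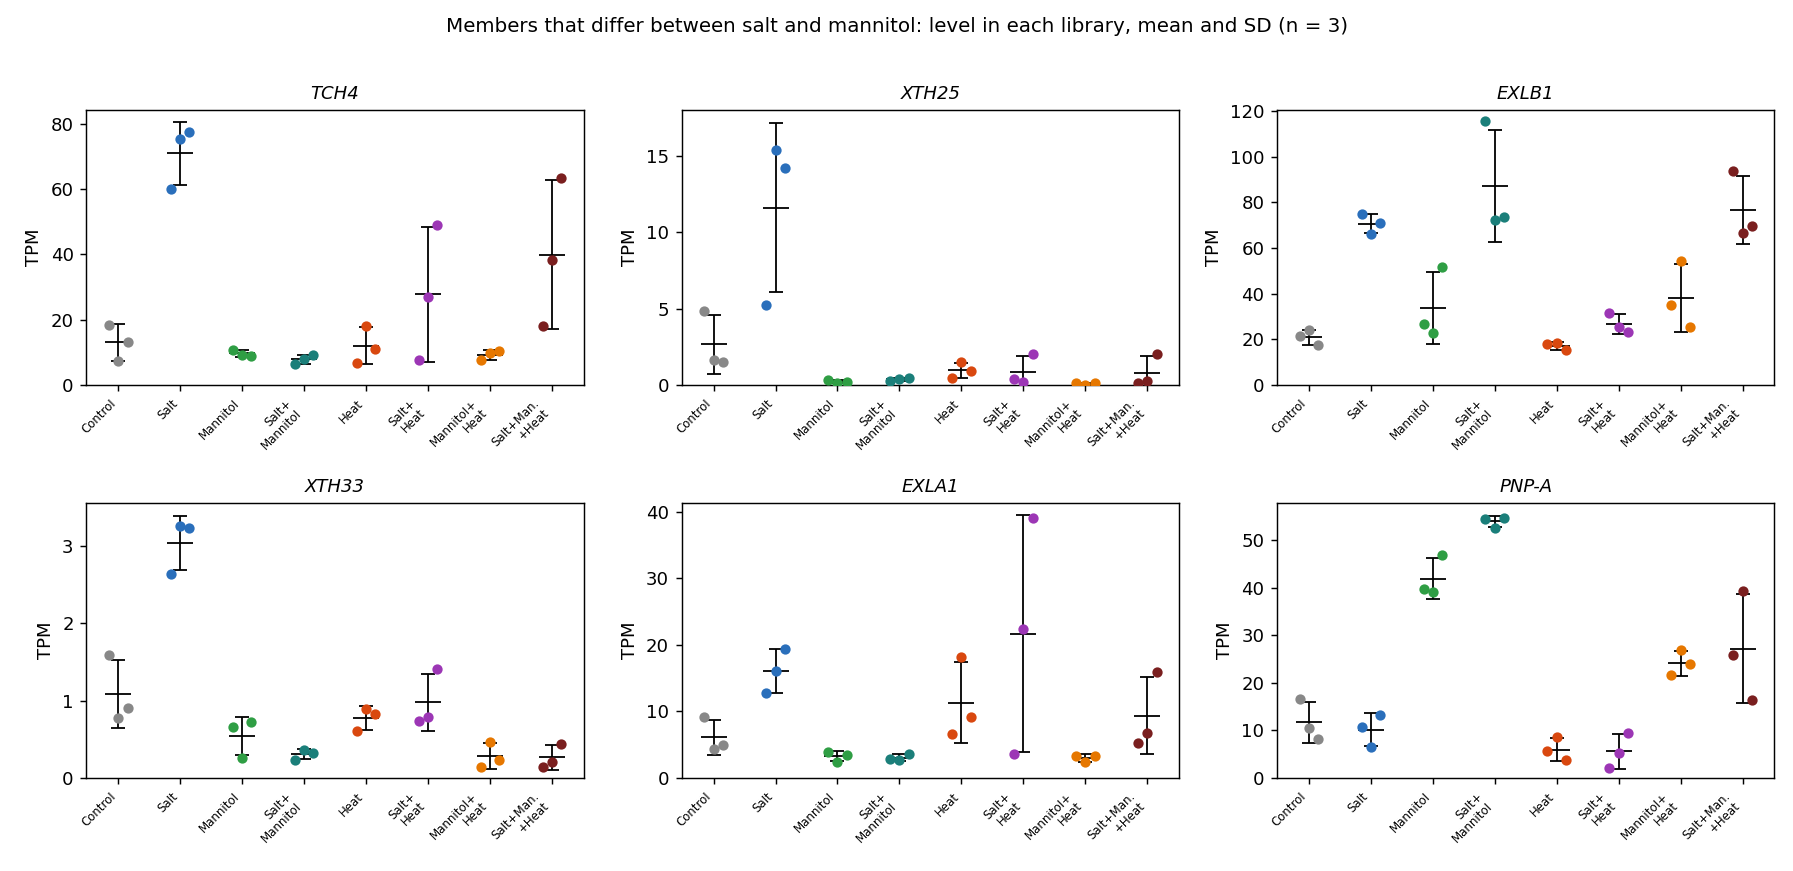
TPM in each library (points), with mean and SD of the 3 libraries of a group (bars), of 6 members called between salt and mannitol. The group means of TCH4, XTH25 and XTH33 are highest under salt alone, PNP-A is highest with mannitol at 22 °C (39.2 to 54.8), and EXLB1 is high in the salt, salt plus mannitol and triple groups (66.3 to 116).

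Salt and mannitol together lowered more members than either alone. Against control 19 of 47 fell (40.4%, against 17.2% of all genes) and 5 rose (10.6%, against 15.4%); 32.6% of all genes were called. The falls held 11 XTH genes, 5 EXPA genes, EXPB1, EXLA2 and EXLA3. XTH6 had 6.39, 13.3 and 16.9 TPM, a fall of 2.58 ± 0.42 (adjusted p = 0.000198), XTH4 had 41.7, 60.8 and 53.7 TPM, a fall of 1.55 ± 0.27 (adjusted p = 0.000302), and XTH9 had 22.7, 28.9 and 35.1 TPM against 72.0, 66.2 and 83.9 in control, a fall of 1.37 ± 0.22 (adjusted p = 0.000172). All 3 treated libraries lay below all 3 controls for each of them.

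The remaining stable falls under both solutes were EXLA3 (-2.62 ± 0.43), EXPA8 (-2.01 ± 0.42; 13.9, 31.2 and 22.2 TPM against 81.1, 71.4 and 115), XTH33 (-1.83 ± 0.42), XTH15 (-1.60 ± 0.24), XTH16 (-1.53 ± 0.26), XTH8 (-1.25 ± 0.23), EXPA5 (-1.20 ± 0.16), EXLA2 (-1.05 ± 0.27), EXP3 (-0.92 ± 0.17), EXPB1 (-0.89 ± 0.20) and EXPA6 (-0.77 ± 0.16). PNP-A rose by 2.14 ± 0.34 to 54.6, 52.6 and 54.8 TPM, EXLB1 by 2.04 ± 0.30 to 116, 72.2 and 73.6 TPM, XTH28 by 0.46 ± 0.09 and XTH32 by 0.40 ± 0.10. XTH33 and EXLA3 had only 21 and 11 counts over the 3 libraries of this group. Further calls rested on single libraries. XTH25 (-2.95 ± 0.90) lost its call without control 1 (-2.17) or salt plus mannitol 1 (adjusted p = 0.0777 to 0.108), XTH7 (-0.57 ± 0.18) without control 1 or 3 or salt plus mannitol 1 (adjusted p = 0.0616 to 0.121) and XTH17 (-0.93 ± 0.30) without control 3 or salt plus mannitol 2 or 3 (adjusted p = 0.0658 to 0.121). XTH20 (-1.03 ± 0.33) lost its call without control 1 or 2 or salt plus mannitol 2 or 3 (adjusted p = 0.0508 to 0.098), EXPA9 (0.54 ± 0.19) without control 2 or 3 or salt plus mannitol 1 or 3 (adjusted p = 0.0586 to 0.159), and EXPA16 (-0.86 ± 0.31) without control 2 or 3 or any salt plus mannitol library (adjusted p = 0.0631 to 0.227). Epidermis markers moved with these falls: ATML1 and PDF1 summed to 62.3 to 93.9 TPM here against 166.7 to 168.4 in control, and both fell (PDF1 -1.36 ± 0.24, ATML1 -0.40 ± 0.10). Summed guard cell markers were 16.5 to 20.5 TPM against 32.2 to 37.4. Their part in the falls was not tested.

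The effect of both solutes was compared with the sum of the effects of each on the log2 scale. At 22 °C, 7 members fell below that sum (14.9%, against 3.76% of all genes) and 0 rose above it (0%, against 2.84%); 6.6% of all genes departed in either direction, and at an unadjusted p under 0.05 10 members did. TCH4, raised by salt alone, differed from control by -0.75 ± 0.58 with both solutes (6.36, 7.99 and 9.07 TPM, no call), a departure of -2.76 ± 0.79 (adjusted p = 0.0469). That call was lost with 11 of 12 libraries left out, all except control 1 (-2.88 to -2.47, adjusted p = 0.0531 to 0.12). XTH33 departed by -2.30 ± 0.55 (adjusted p = 0.0158), XTH17, a second shade-induced XTH gene, by -1.82 ± 0.39 (adjusted p = 0.00781), XTH16 by -1.74 ± 0.36 (adjusted p = 0.00806) and XTH15 by -1.52 ± 0.33 (adjusted p = 0.00818), all with each library left out in turn. EXLA3 departed by -2.38 ± 0.55, a call lost without salt plus mannitol 1 (-2.02, adjusted p = 0.0527), and XTH9 by -1.35 ± 0.31, lost without control 2 (-1.27, adjusted p = 0.0507). XTH4 (-1.25 ± 0.37, adjusted p = 0.0502) and XTH6 (-1.17 ± 0.56, adjusted p = 0.238) were not called. Because 1 watering gave both solutes while each single effect holds a watering of its own, a departure cannot be told apart from an effect of watering.

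**Figure D4:**
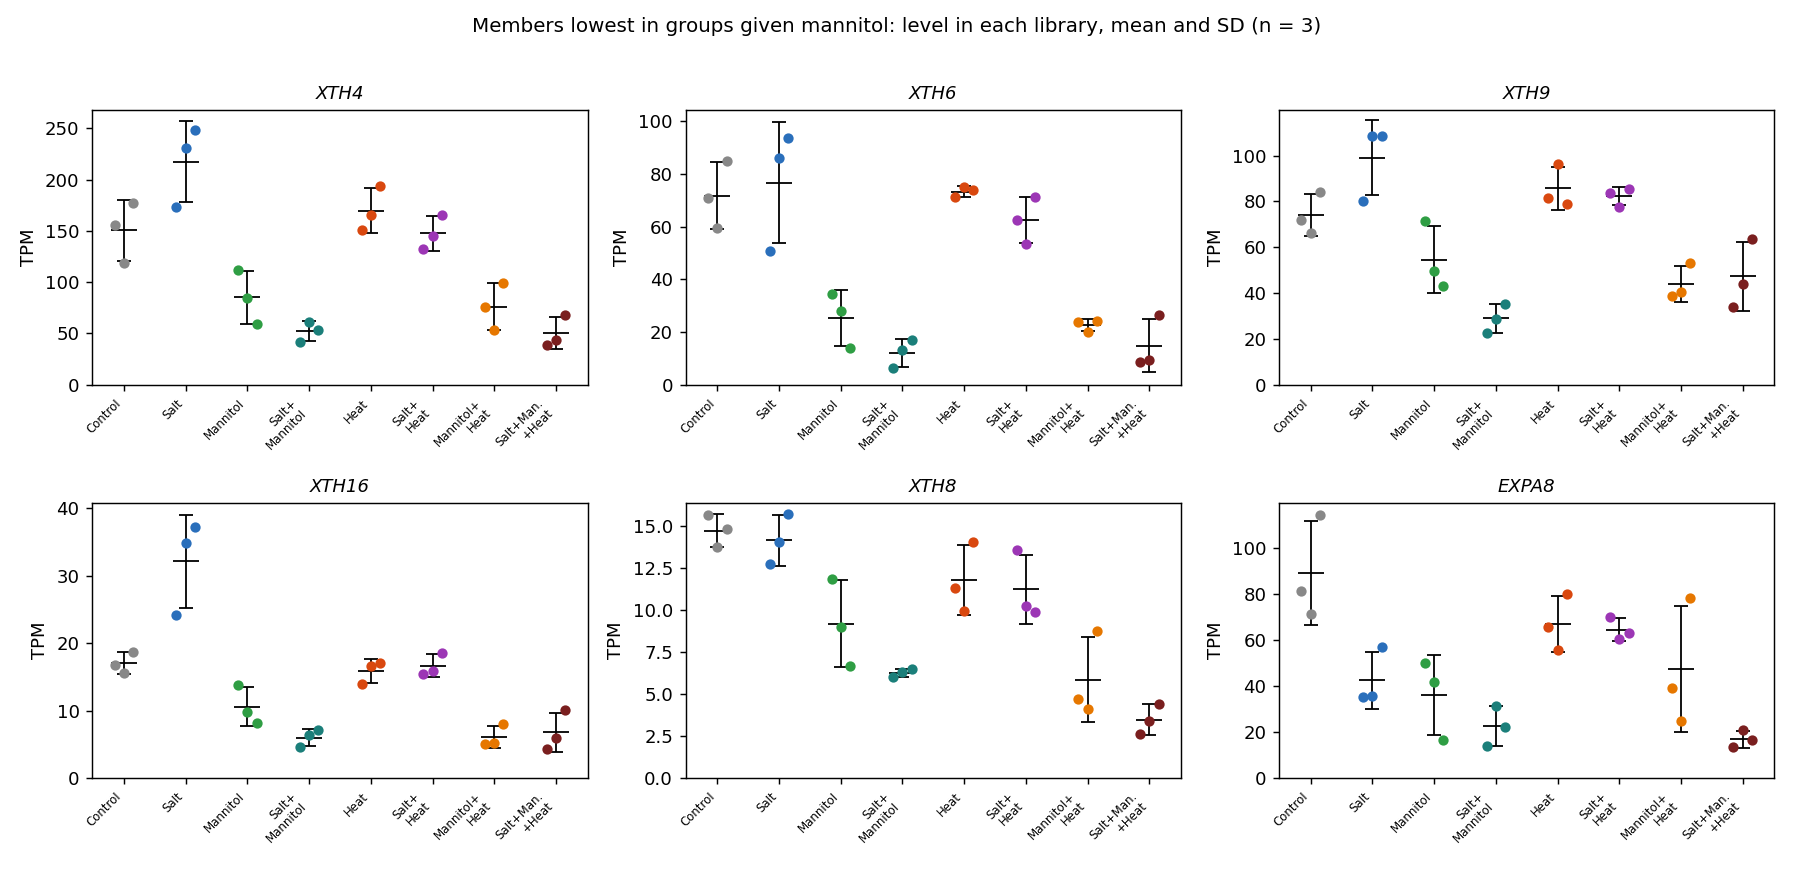
TPM in each library (points), with mean and SD of the 3 libraries of a group (bars), of 6 members whose lowest group mean lies in the salt plus mannitol or the triple group. XTH4 stays between 39.1 and 112 in the groups given mannitol and between 119 and 248 in the others.

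Heat alone called a smaller share of these genes than of all genes, and among the 23 tested expansin-type genes 10 fell, 2 rose and 11 were not called. Of the 47 members 13 fell (27.7%, against 30.9% of all genes) and 6 rose (12.8%, against 31.7%), so that 40.4% were called beside 62.6% of all genes. Among EXPA genes 7 fell and 2 rose (median -0.47), both tested EXPB genes fell, and among XTH genes 3 fell and 4 rose (median -0.16).

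EXPA1, an expansin known from guard cell walls, stood at 52.7, 47 and 57.2 TPM under heat and at 159, 123 and 192 in control, a fall of 1.58 ± 0.32 (adjusted p = 0.000418). EXPB1 stood at 13.8, 7.02 and 11.9 TPM against 25.4, 30.7 and 30.7 and fell by 1.39 ± 0.20 (adjusted p = 5.87e-06), and EXPB3 at 35.0, 17.9 and 27.2 against 64.4, 65.0 and 66.5 and fell by 1.28 ± 0.21 (adjusted p = 4.37e-05). Heated and control libraries were apart in all 3 genes. Other stable falls were EXPA14 (-1.26 ± 0.31), EXPA15 (-0.95 ± 0.21), EXPA5 (-0.73 ± 0.16), XTH32 (-0.50 ± 0.10) and XTH28 (-0.33 ± 0.09).

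Low-level members had the largest falls. XTH20 had 1, 6 and 1 counts under heat against 58, 64 and 37 in control (-4.35 ± 0.48, adjusted p = 5.65e-08; -5.64 without heat 2). EXPA17, an expansin known from lateral root emergence, had 8, 1 and 2 counts against 21, 23 and 25 (-2.72 ± 0.41, adjusted p = 5.23e-06; -3.94 without heat 1). With so few counts the fitted value depends on the prior count and is no bound. XTH20 stayed low in all heated groups, with 8 counts over the 3 heat libraries, 9 with salt plus heat, 7 with mannitol plus heat and 13 with all 3 stresses, against 159 over the 3 controls.

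XTH7 rose under heat by 1.27 ± 0.18 (274, 199 and 268 TPM against 110, 83.9 and 116; adjusted p = 4.72e-06). XTH5 rose by 1.05 ± 0.14 (6.21, 8.05 and 6.82 TPM against 3.02, 3.59 and 3.69; adjusted p = 6.45e-07), XTH17 by 1.47 ± 0.25, XTH11 by 1.23 ± 0.28 and the alpha-expansin EXP3 by 0.65 ± 0.16 (47.7, 39.6 and 49.7 TPM against 28.0, 26.3 and 33.7; adjusted p = 0.00154). In each of these genes the heated libraries lay above the controls. XTH17, XTH18 and XTH19 share 8.58% to 12.3% of their coding 31-base words, so that the split of reads among them is uncertain. Calls lost without a library were PNP-A (-0.97 ± 0.41, without control 1 or 2 or heat 1 or 3, adjusted p = 0.0649 to 0.235), EXPA6 (-0.39 ± 0.15, without control 1 or 3 or heat 2, adjusted p = 0.08 to 0.155), EXPA9 (-0.61 ± 0.20, without control 1 or heat 2, adjusted p = 0.0758 to 0.111) and EXPA20 (0.44 ± 0.17, without control 1 or 2 or heat 1 or 3, adjusted p = 0.0644 to 0.14).

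Markers of dividing cells and meristem had a lower sum in the same libraries: 3 of them summed to 11.9 to 14.9 TPM under heat, 6.79 to 8.45 under all 3 stresses and 18.7 to 26.4 in control. Under heat 2 of the 3 fell, among them the cytokinesis gene SYP111, by 0.91 ± 0.20. SYP111 held most of the sum (16.8 of 22.1 TPM in control, as means). The meristem marker STM had 3.36 TPM under heat against 3.38 in control. The 4 guard cell markers summed to 23.7 to 27.6 TPM under heat, 15.1 to 19.3 under all 3 stresses and 32.2 to 37.4 in control. Of these 4, 2 fell under heat and 2 were not called, so the lower sum under heat was not shared by each marker as a call. Under all 3 stresses 4 of 4 fell. None of either list was at 0 in any group, and their part in the expansin falls was not tested.

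**Figure D5:**
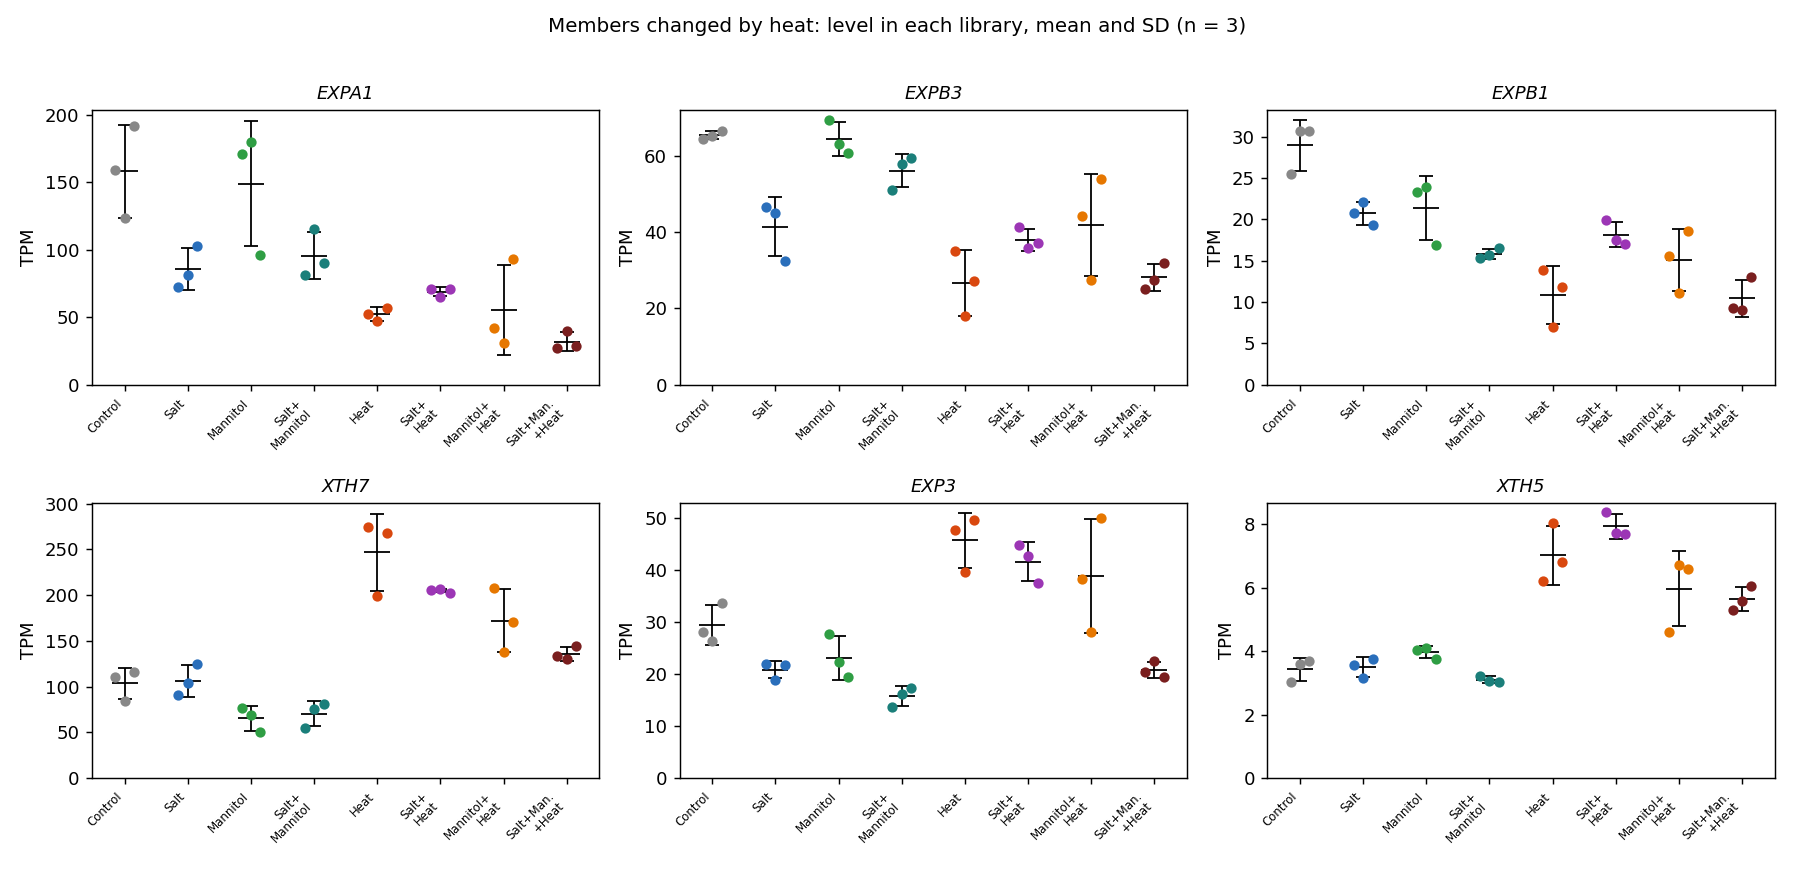
TPM in each library (points), with mean and SD of the 3 libraries of a group (bars), of 6 members called under heat. EXPA1, EXPB1 and EXPB3 are lower and XTH7, EXP3 and XTH5 higher in the 3 heat libraries than in all controls, and EXP3 lies at 19.3 to 22.5 under all 3 stresses, below the controls.

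Adding salt to heat changed little that could be called. Against control, salt plus heat raised 8 members (17%, against 31.7% of all genes) and lowered 9 (19.1%, against 31.5%), with 63.2% of all genes called. Set against heat alone, 0 of 47 members were called by edgeR (of all genes 0.365% rose and 0.664% fell, 1.03% together), 9 had an unadjusted p under 0.05, and DESeq2 called 3 and limma 0. The spread was wide for some members: TCH4 stood at 7.48, 26.8 and 48.9 TPM with salt plus heat and at 6.74, 18.0 and 11 with heat (1.23 ± 0.54, adjusted p = 0.326), and EXLA1 at 3.54, 22.4 and 39.1 against 6.62, 18.1 and 9.23 (0.94 ± 0.56, adjusted p = 0.495). In both genes salt plus heat 1 was the lowest of its group and salt plus heat 3 the highest. EXLA1 rose against control by 1.84 ± 0.60, a call lost without control 2 or salt plus heat 3 (1.08 to 1.63, adjusted p = 0.0542 to 0.135; 1.08 without salt plus heat 3).

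Stable rises of salt plus heat over control were XTH17 (1.51 ± 0.25), XTH5 (1.23 ± 0.14), XTH11 (1.18 ± 0.28), XTH31 (1.08 ± 0.24; 83.8, 81.7 and 66.9 TPM against 38.6, 36.1 and 36.7), XTH7 (1.01 ± 0.18) and EXP3 (0.52 ± 0.16). XTH20 (-3.98 ± 0.48), EXPA17 (-1.20 ± 0.35), EXPA1 (-1.17 ± 0.32), EXPB3 (-0.76 ± 0.21), EXPB1 (-0.65 ± 0.20), EXPA15 (-0.65 ± 0.20), EXPA5 (-0.61 ± 0.16) and EXPA6 (-0.55 ± 0.16) fell. PNP-A (-1.08 ± 0.43, and -1.73 without salt plus heat 3) lost its call without control 1 or salt plus heat 1 or 2 (adjusted p = 0.0861 to 0.178), and EXPA20 (0.48 ± 0.18) without control 2 or salt plus heat 1 (adjusted p = 0.0525 to 0.104).

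Adding mannitol to heat lowered XTH genes again. Against control, mannitol plus heat lowered 24 members (51.1%, against 32% of all genes) and raised 9 (19.1%, against 32.6%), with 64.7% of all genes called. Of these 33 calls only 22 were made with each library left out in turn. The calls of EXPA10, EXPA11, EXPA20, EXP3 and XTH17 were each lost without any of 4 of the 6 libraries. Against heat alone, 10 members fell (21.3%, against 6.32% of all genes) and 4 rose (8.51%, against 6%), with 12.3% of all genes called; scaled by library totals, 10 fell and 7 rose. Of the 10 falls 9 were XTH genes. XTH4 had 76.2, 53.0 and 99.6 TPM with mannitol plus heat and 151, 165 and 193 with heat, a fall of 1.15 ± 0.26 (adjusted p = 0.00985). XTH6 had 23.8, 20 and 24.2 TPM against 71.2, 75.1 and 73.8, a fall of 1.69 ± 0.40 (adjusted p = 0.0123), and XTH16 had 5.02, 5.25 and 8.00 against 13.9, 16.6 and 17.1, a fall of 1.37 ± 0.26 (adjusted p = 0.00336). No library of the 2 groups overlapped in these genes. Against heat, the epidermis marker PDF1 also fell (-0.75 ± 0.24, from 132 to 78.8 TPM) while ATML1 was not called, and 2 of 4 guard cell markers fell (MYB60 -0.53 ± 0.13, KAT1 -0.45 ± 0.10). Their part in the XTH falls was not tested.

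XTH15 (-1.85 ± 0.25) fell too, PNP-A (1.97 ± 0.38) and XTH32 (0.70 ± 0.10) rose, and these 6 calls were made with each library left out. The other 8 rested on single libraries, and without heat 3 only 9 members were called. The call of XTH9 was lost without heat 2 (adjusted p = 0.0501), of XTH28 without heat 1 or 3 (0.0509 to 0.0538), of XTH8 without mannitol plus heat 1 or 2 (0.0509 to 0.0577) and of EXLA2 without heat 2 or mannitol plus heat 1 or 2 (adjusted p = 0.064 to 0.0716). Those of XTH17 (without heat 1 or 3 or mannitol plus heat 2), EXLB1 (heat 2 or 3 or mannitol plus heat 2), XTH33 (heat 2 or 3 or mannitol plus heat 1 or 3) and XTH18 (any of the 6 except heat 1) reached adjusted p = 0.0785, 0.111, 0.145 and 0.159 at most. Without the 4 libraries of higher organelle share, among them mannitol plus heat 2, 6 members rose and 3 fell. Within the mannitol plus heat group, library 3 was the highest for several expansins, as in EXPA1 at 42.4, 30.7 and 92.9 TPM (-1.49 ± 0.32 against control, -2.10 without library 3) and EXPA8 at 39.1, 24.9 and 78.1.

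All 3 stresses together lowered alpha-expansins, while EXLB1 and PNP-A rose. Against control 24 of 47 members fell (51.1%, against 32.7% of all genes) and 6 rose (12.8%, against 33%), with 65.7% of all genes called; scaled by library totals, 21 fell and 9 rose. Of 16 EXPA genes 12 fell and 0 rose, with a median of -0.95 against -0.0016 over all genes. EXPA1 reached 27.3, 40 and 28.5 TPM, a fall of 2.30 ± 0.34 (adjusted p = 1.18e-05), and EXPA8 13.3, 20.7 and 16.6 TPM, a fall of 2.40 ± 0.44 (adjusted p = 0.000129). Both were below every control library. Epidermis markers were lower in the same libraries: both fell (PDF1 -1.27 ± 0.24, from 140 to 57.9 TPM; ATML1 -0.51 ± 0.10), with sums of 57.5 to 107.5 TPM against 166.7 to 168.4, and 4 of 4 guard cell markers fell. Their part in the expansin falls was not tested. EXPA14 (-1.69 ± 0.34), EXPB1 (-1.47 ± 0.21), EXPA11 (-1.21 ± 0.27), EXPB3 (-1.21 ± 0.21), EXPA17 (-1.19 ± 0.35), EXPA16 (-1.14 ± 0.33), EXPA5 (-1.13 ± 0.16), EXPA10 (-0.97 ± 0.25), EXPA6 (-0.92 ± 0.16), EXPA15 (-0.75 ± 0.21) and EXPA4 (-0.53 ± 0.17) fell with each library left out. Of these, EXPA14 and EXPA17 had only 18 and 27 counts over the 3 triple libraries. EXP3 (-0.49 ± 0.17) lost its call without control 3 or the triple library 3 (adjusted p = 0.054 to 0.0787).

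Among XTH genes 9 fell and 4 rose under all 3 stresses. XTH6 fell by 2.27 ± 0.41 (8.73, 9.47 and 26.5 TPM; -2.97 without the triple library 3), XTH8 by 2.09 ± 0.26, XTH33 by 2.04 ± 0.45, XTH4 by 1.57 ± 0.27 (39.1, 43.8 and 67.8 TPM) and XTH16 by 1.33 ± 0.26. The XTH33 value rests on 15 counts over the 3 triple libraries. XTH11 (1.1 ± 0.29) and XTH5 (0.73 ± 0.14) rose. EXLB1 rose by 1.88 ± 0.30 to 94.0, 66.5 and 69.6 TPM. PNP-A rose by 1.17 ± 0.35, a call lost without the triple library 2 (0.83, adjusted p = 0.058). TCH4 rose by 1.62 ± 0.53 (18.1, 38.2 and 63.5 TPM against 18.4, 7.31 and 13.2, the lowest triple library lying within the controls), a call lost without control 2 or the triple library 3 (1.12 to 1.33, adjusted p = 0.0621 to 0.0912). XTH18 (-1.38 ± 0.49) lost its call without control 1 or the triple library 3 (adjusted p = 0.0903 to 0.104), XTH9 (-0.64 ± 0.22) without control 3 or the triple library 1 or 2 (0.0531 to 0.0911) and XTH28 (0.21 ± 0.09) without control 2 or the triple library 1 or 2 (0.0975 to 0.244).

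Against heat alone the triple combination lowered 15 members (31.9%, against 13.1% of all genes) and raised 6 (12.8%, against 9.97%), with 23.1% of all genes called. EXP3, raised by heat, was lower by 1.15 on the log2 scale (-1.15 ± 0.17; 20.4, 22.5 and 19.3 TPM against 47.7, 39.6 and 49.7; adjusted p = 9.92e-05), and XTH7 by 0.87 (-0.87 ± 0.18; 133, 130 and 144 TPM against 274, 199 and 268). XTH6 (-2.32 ± 0.41, and -3.02 without the triple library 3), EXPA8 (-2 ± 0.44), XTH8 (-1.78 ± 0.26), XTH4 (-1.77 ± 0.27), XTH17 (-1.70 ± 0.26) and EXPA16 (-1.56 ± 0.32) were lower too. EXLB1 (2.15 ± 0.31), PNP-A (2.14 ± 0.38), XTH32 (0.68 ± 0.10) and XTH28 (0.54 ± 0.09) were higher. These calls were made with each library left out.

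Where heat was 1 of the stresses, 2 members departed from the sum of single effects with salt and 2 with mannitol. Such small counts do not set the members apart from all genes. For salt with heat 2 members lay above the sum (4.26%, against 0.859% of all genes) and 0 below it (0%, against 0.544%); 1.4% of all genes departed in either direction, and 13 members had an unadjusted p under 0.05. They were XTH31 (1.57 ± 0.34, adjusted p = 0.033) and EXPB1 (1.23 ± 0.28, adjusted p = 0.0387). XTH31 was low under salt (29.0, 21.2 and 19.4 TPM) and high under salt plus heat, as given above. For mannitol with heat EXPB1 lay above (0.92 ± 0.28; 2.13% of members, against 3.59% of all genes) and XTH30 below (-1.04 ± 0.32; 2.13%, against 5.19%), and 8.78% of all genes departed. Each of these 4 calls was lost without some library: EXPB1 without 9 of 12 for salt with heat (0.99 to 1.30, adjusted p = 0.0629 to 0.113), XTH31 without 7 (1.33 to 1.59, adjusted p = 0.0661 to 0.0932), EXPB1 without 8 for mannitol with heat (adjusted p = 0.0556 to 0.122) and XTH30 without 8 (adjusted p = 0.0628 to 0.122). Those libraries were control 2 and 3, heat 2 and 3 (heat 2 alone for XTH31), salt 2 and 3 with salt plus heat 1 and 2 for the salt comparison (and salt 1 for EXPB1), and mannitol 2 and 3 with mannitol plus heat 1 and 3 for the mannitol comparison.

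Some members had profiles over the 8 groups close to each other. By Pearson correlation of group means of log2(TPM + 1), over 8 points that share their libraries, XTH4 was most like XTH6 (r = 0.982) and XTH16 (0.95), XTH16 most like XTH15 (0.973), EXPA1 most like EXPA14 (0.979) and EXPB3 (0.903), and XTH7 most like XTH5 (0.888). The 3 members most like TCH4 were EXGT-A3 (0.857), EXLA1 (0.774) and XTH25 (0.749), the last being the neighbour of TCH4. TCH4 was not among the 3 members most like XTH25. EXLA1 and its neighbour EXLA3 were not among each other's 3 most like members.

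Other wall genes were counted by their MapMan bins. Under salt plus mannitol, where 17.2% of all genes fell and 15.4% rose, 28 of 75 tested genes of cell wall proteins fell and 6 rose, 28 of 78 wall degradation genes fell and 5 rose, 16 of 44 pectin esterase genes fell and 5 rose, and 12 of 43 cellulose synthesis genes fell and 7 rose. In the bins for precursor synthesis 11 of 52 fell and 7 rose, for hemicellulose synthesis 2 of 17 fell and 2 rose, and for pectin synthesis 1 of 6 fell and 3 rose. The fasciclin-like FLA9 (-2.02 ± 0.36) and FLA2 (-1.49 ± 0.21) and the pectin methylesterase PME5 (-1.36 ± 0.23) fell, and the arabinogalactan gene AGP5 rose (1.87 ± 0.31). Under heat, where 30.9% of all genes fell and 31.7% rose, 25 of 43 cellulose synthesis genes fell and 9 rose, a median of -0.44. Precursor synthesis had 28 falls and 6 rises among 52 genes under heat, wall proteins 34 and 13 among 75, degradation 34 and 15 among 78, pectin esterases 17 and 11 among 44, pectin synthesis 4 and 0 among 6, and hemicellulose synthesis 4 and 4 among 17 (median 0.11). Of 10 tested plasma membrane proton pumps, which acidify the wall, 4 rose and 1 fell under heat, and under salt plus mannitol 2 rose and 3 fell (HA11 -0.97 ± 0.17, HA1 0.26 ± 0.07). The receptor kinase THE1, a sensor of wall state, rose under salt (0.94 ± 0.19) and fell under mannitol (-0.71 ± 0.20) and under salt plus mannitol (-0.95 ± 0.20).

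The authors' deposited table holds their own q-values. At a q under 0.05 it lists 5 members higher and 6 lower under salt, of which 5 were also called here in the same direction. Higher and lower members in the authors' deposited table were 5 and 5 under mannitol (9 shared with the calls here), 7 and 15 under heat (18 shared), 7 and 20 under salt plus mannitol (22 shared), 10 and 14 under salt plus heat (15 shared), 10 and 25 under mannitol plus heat (30 shared) and 10 and 24 under all 3 stresses (29 shared).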

How the data were processed

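The deposited table gives, per the file headers, kallisto estimated counts for 1 Araport 11 transcript model per gene. The submitters' processing notes name CASAVA, kallisto 0.45.1 and sleuth 0.30.0. In every library the deposited counts are multiples of a constant (0.797 to 1.25; 94.7% to 95.2% of values within 0.01), which was divided out before rounding. The ratio of counts to TPM follows coding length, so the authors quantified coding sequences. The deposited TPM (a signal) sum to 0.920 M to 1.12 M per library and serve for levels only. The authors' q-values (corrected p-values) and their natural log fold changes, whose base was read from their size against TPM, served for the comparison with calls made here. Sequences and positions are from RefSeq TAIR10.1, which the file headers do not name.

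Counts were tested with edgeR 4.0.16 (R 4.3.3): TMM scaling, filterByExpr (20027 genes), robust quasi-likelihood fit of all 24 libraries, 16 comparisons and Benjamini-Hochberg adjustment over all genes, at a threshold of 0.05. The test was checked on simulated data with few changed genes and the same spread for every gene. That check cannot speak for the heated groups against control, where 62.6% to 65.7% of all genes were called. Alternatives used DESeq2 1.42.0, limma 3.58.1 on log2(TPM + 1), other scalings, filters and sample sets. Same-numbered libraries of different groups did not deviate together (84 pairs, median r 0.00072, range -0.334 to 0.282), so numbers were not used as pairs. The members and gene lists were chosen with earlier results of these data known. Named genes were to be the called members of largest change (up to 6 per direction against control and 4 elsewhere) with at least 5 TPM in a compared group, the 6 most abundant, and up to 3 per direction of other lists. Members outside that rule, such as XTH20, XTH33, XTH15, XTH18, EXPA14, EXPA17 and EXLA3, were named after their values were seen, as were all called members listed as losing a call.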

Additional observations from a re-analysis of the deposited data

Results flagged for a closer look

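Combined effects that departed from added single effects (log2 scale, n = 3 libraries per group) were called 15 times by edgeR's quasi-likelihood test. At 22 °C the effect of salt with mannitol lay below the sum in 7 members: XTH33 (-2.30), XTH17 (-1.82), XTH16 (-1.74), EXLA3 (-2.38), XTH9 (-1.35), XTH15 (-1.52) and TCH4 (-2.76). For salt with heat EXPB1 (1.23) and XTH31 (1.57) lay above the sum, and for mannitol with heat XTH30 (-1.04) lay below it and EXPB1 (0.92) above it.

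A further pair of comparisons was added after the data had been seen. Among heated plants, the effect of salt with mannitol lay below the sum for EXPB1 (-1.29) and XTH31 (-1.38), where 0.649% of all genes lay below and 0.789% above (1.44% in all). The departure at 35 °C minus that at 22 °C was positive for EXLA3 (3.54) and XTH15 (2.40), where it was positive for 0.135% of all genes and negative for 0.215% (0.35% in all). Each of these 4 calls was lost without some library: EXPB1 without 7 of 12 (heat 2, salt plus heat 1 or 2, mannitol plus heat 1 or 3, triple 1 or 2; -1.32 to -1.05, adjusted p = 0.0677 to 0.127), and XTH31 without the same 7 or triple 3 (-1.43 to -1.15, adjusted p = 0.0657 to 0.148). EXLA3 lost its call without 17 of 24, all except control 1, salt 1, mannitol 1, heat 1, mannitol plus heat 2 or 3 and triple 1 (3.18 to 3.85, adjusted p = 0.0524 to 0.0959). XTH15 lost its call without 11 of 24: control 2, salt 2 or 3, heat 2 or 3, salt plus mannitol 2 or 3, salt plus heat 1 or 2, mannitol plus heat 1 and triple 3 (2.12 to 2.44, adjusted p = 0.0553 to 0.0756). EXLA3 had 2, 4 and 5 counts with salt plus mannitol and 8, 16 and 14 with all 3 stresses.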

How the results depend on the processing

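Of 106 named results, 0 reversed under any alternative, and the calls that lost significance were 2 with DESeq2, 0 with RLE scaling, 7 with library totals, 8 without the filter, 18 with the groups of the comparison only, 6 with limma, 4 with undivided counts, 19 without the 4 libraries of higher organelle share (fewer samples) and 33 with some single library left out, the largest loss of these settings. Counts of called members were within 1.5 times the reported ones except as follows; the cause was not tested. With a log2 fold change of at least 1, called members numbered 5 (mannitol), 4 (salt), 10 (heat), 15 (both solutes), 14 (mannitol plus heat), 10 (salt plus heat), 9 for mannitol plus heat against heat and 1 for mannitol with heat. Using the groups of the comparison only, 15 were called for salt, 1 for salt plus heat against heat and 0 for mannitol with heat and for salt with mannitol at 35 °C. DESeq2 called 3 for salt plus heat against heat, 4 for mannitol with heat, 5 for salt with mannitol at 35 °C and 7 for the difference between temperatures. Library totals gave 1 for mannitol with heat and 1 at 35 °C, and no filter gave 0 and 1, with 1 for the difference between temperatures. Undivided counts gave 1 for mannitol with heat and 1 for the difference, and limma 0, 1 at 35 °C and 1. Without the 4 libraries the counts were 1 for salt plus heat against heat, 9 for mannitol plus heat against heat, 1 for salt with heat and 4 at 35 °C.

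The replicate block, a fit with replicate number as a term although the numbers do not pair the libraries, called 1 member for salt plus heat against heat, 1 for mannitol with heat and 1 for salt with mannitol at 35 °C, and kept the other counts within 1.5 times; 6 named calls were lost.

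With 1 library left out in turn, called members against control ranged from 7 to 17 (mannitol), 3 to 8 (salt), 15 to 18 (heat), 20 to 22 (both solutes), 26 to 31 (mannitol plus heat), 17 to 18 (salt plus heat) and 27 to 31 (all 3). The ranges were 0 to 2, 9 to 17 and 15 to 19 for salt plus heat, mannitol plus heat and all 3 against heat, 16 to 21 for mannitol against salt, 5 to 7 for salt with mannitol, 0 to 5 for salt with heat, 0 to 5 for mannitol with heat, 0 to 6 at 35 °C and 0 to 4 for the difference between temperatures.

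TMM takes most genes as unchanged. Under library totals the median of all genes moved by 0.108 (salt), 0.118 (both solutes), 0.127 (mannitol plus heat), 0.176 (all 3 stresses), 0.109 for all 3 against heat and 0.112 for the difference between temperatures. Counts limit the low members: 22 of 69 were not tested, and XTH20, XTH25, XTH33, EXPA14, EXPA17 and EXLA3 rest on under 20 counts per library in several groups. XTH33 had 21, 16 and 15 counts over the 3 libraries of salt plus mannitol, mannitol plus heat and all 3 stresses. EXPA14 had 29, 27 and 18 over those of heat, mannitol plus heat and all 3. With mannitol plus heat XTH15 had 39 and XTH18 42.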
